A study of Nothobranchius furzeri with 30 samples.

Results

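The loci of cystine uptake and glutathione turnover were followed with age in the retina of the African turquoise killifish, a short-lived teleost used to study ageing. Members were chosen by gene name, from the deposited annotation of the loci, with earlier results of these data known. The name CU571169.1 is among them because the study takes that locus as slc7a11, and the study checked by hand the annotation of loci that passed its thresholds in these same fish. Its difference between 18 and 6 weeks is therefore a description and no independent evidence. The names were CU571169.1, SLC3A2, GCLC, GCLM, GSS, GSR, CHAC1, CHAC2 and GPX4, in upper case, without copy marks such as (1OF2), and with an A or B suffix allowed for SLC3A2 and GPX4. Of 24989 loci, 10 were members, and 1 of the names, GSR, was carried by no locus and is not analysed here. All 10 passed the filter on low counts, as did 13975 loci in total.

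The fish were untreated wild-type females of the inbred GRZ-AD strain, sampled as young adults of 6 weeks, in middle age at 12 weeks and in old age at 18 weeks, with 10 fish at each age. Both retinas of a fish were combined into 1 sample, after the retinal pigmented epithelium (RPE) had been rinsed away. Libraries were made with QuantSeq, which reads the 3′ end of messenger RNA, so that levels were not compared between loci. Ratios of 2 loci within a fish were read only for their change between ages. The labels give age as the only factor between the groups, and all fish shared sex and strain.

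Glutathione is a tripeptide of glutamate, cysteine and glycine, and it is the main small thiol with which cells detoxify peroxides. In mammals and other vertebrates, cysteine for its synthesis enters many cells as cystine through system xc-, an exchanger built of the light chain SLC7A11 and the heavy chain SLC3A2. Glutamate-cysteine ligase, with the catalytic subunit GCLC and the modifier subunit GCLM, makes gamma-glutamylcysteine, and glutathione synthetase, GSS, adds glycine. Enzymes of the CHAC family cleave glutathione inside the cell, and GPX4 uses it to reduce lipid peroxides, which protects membranes from the iron-dependent cell death called ferroptosis. In the retina, Müller glia are known as a major store of glutathione, and photoreceptor membranes are rich in lipids that oxidise easily.

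Between 3552371 and 5840792 reads per fish were counted on loci, so that 1 count stood for 0.175 to 0.274 CPM (library-scaled counts, with the TMM factors of edgeR). 18-week fish 1 and 4 stood apart from the others on the first principal component, at 101 and 27.7, where the remaining fish lay between -23.1 and 18.6. Results that rest on them are given with and without them. The 9 rod marker loci tested had a mean log2 CPM of 9.0 at 6 weeks and 9.04 at 18 weeks, so that rod messages were abundant at both ages. Of 12 tested RPE marker loci, 9 were lower at 18 than at 6 weeks and 0 higher in edgeR (0 higher also in DESeq2 or at an unadjusted p under 0.05), with a median log2 fold change (log2FC) of -1.24. The RPE score, their mean log2 CPM in a fish, lay between 4.29 and 5.11 at 6 weeks, between 3.17 and 5.07 at 12 weeks and between 3.34 and 4.33 at 18 weeks. RPE65A was still at 194 CPM at 18 weeks, so that RPE messages were not absent at any age. Of 10 immune cell markers, 5 were higher at 18 weeks and 0 lower in edgeR, against 6 and 0 in DESeq2, and 0 were lower at an unadjusted p under 0.05. Of 8 loci on the Müller glia list, 4 were higher and 2 lower in edgeR (4 and 1 in DESeq2). The higher loci were RLBP1A, GFAP, CA2 and APOEB, and both lower loci were named RLBP1B. The study places rlbp1b in the RPE and apoeb in immune cells. Oligodendrocyte markers gave 2 higher and 1 lower of 7, rod markers 2 higher and 0 lower (0 in DESeq2, and 1 lower at an unadjusted p under 0.05), and the lone lens marker tested was higher. No red blood cell marker was tested. The study observed that the RPE adhered more to young retinas, and proposes that removal may account for lower RPE messages with age. It draws no definitive conclusion on RPE genes. In whole retinas, fewer cells of a type, less RNA per cell and, for RPE markers, less RPE left on the tissue cannot be told apart.

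The first question was how far these loci differed between young adult and old fish. A locus is said to have changed where its Benjamini-Hochberg adjusted p over all 13975 loci (FDR) from edgeR's quasi-likelihood test was under 0.05. At 18 against 6 weeks, 4 of the 10 members were higher past this threshold. They were SLC3A2, GCLC and GCLM, which serve cystine uptake or the rate-limiting step of synthesis, and CU571169.1, whose place among the members was not independent of this comparison. CHAC1(1OF2) and GPX4A fell. CHAC1, CHAC2, GSS and GPX4B did not pass the test. Over all loci tested, 14% were higher, 15.2% lower and 29.2% called in either direction. The median log2FC of the members was 0.27, beside 0.02 over all loci. Only CU571169.1, upwards, and CHAC1(1OF2), downwards, also had an absolute log2FC of at least 1, a size passed upwards by 1.31% and downwards by 2.03% of all loci.

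**Figure D1:**
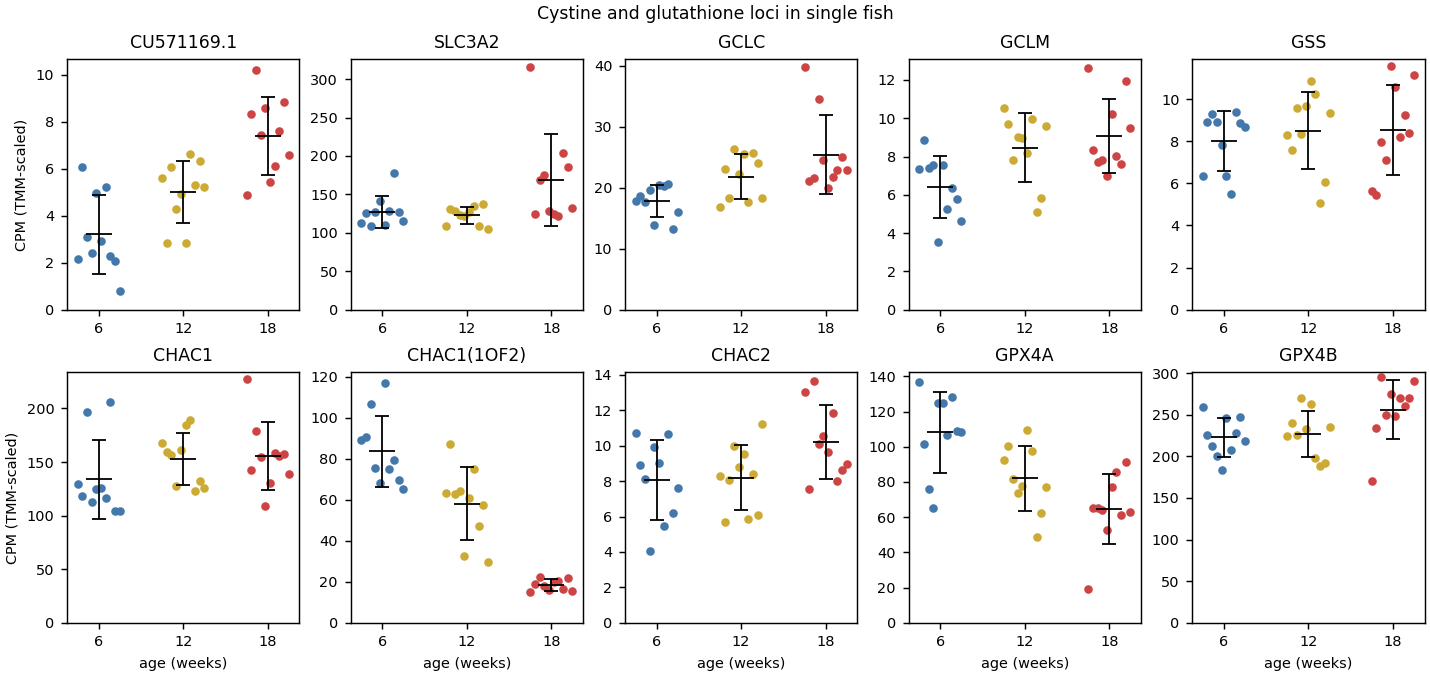
TMM-scaled CPM of the 10 loci in single fish (points) at 6, 12 and 18 weeks, with the mean and SD of 10 fish (bars); each panel has its own vertical axis, which starts at 0. CHAC1(1OF2) is the only panel in which the 18-week fish, between 15.1 and 22.4 CPM, lie apart from all younger fish.

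The step from 6 to 12 weeks and the step from 12 to 18 weeks were then compared. Both steps share the 12-week fish. At 12 against 6 weeks, 1 member fell, CHAC1(1OF2), and 0 rose, where 0.909% of all loci were lower, 1.3% higher and 2.2% called either way. For the 0 rises, DESeq2 also gave 0, and 3 members were higher at an unadjusted p under 0.05, CU571169.1 (p = 0.0103 in edgeR's quasi-likelihood test), GCLC (p = 0.0222) and GCLM (p = 0.0183). At 18 against 12 weeks, SLC3A2 rose and CHAC1(1OF2) fell, where 5.19% of all loci were higher and 6.93% lower. The fall also passed the fold threshold, as did 0.766% of all loci downwards. The difference between the steps was tested for each locus in the same fit. CHAC1(1OF2) alone passed that test, in which 0.694% of all loci had a more negative second step, 0.236% a more positive one and 0.93% either. Its difference was also beyond -1, as in 0.293% of all loci.

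**Figure D2:**
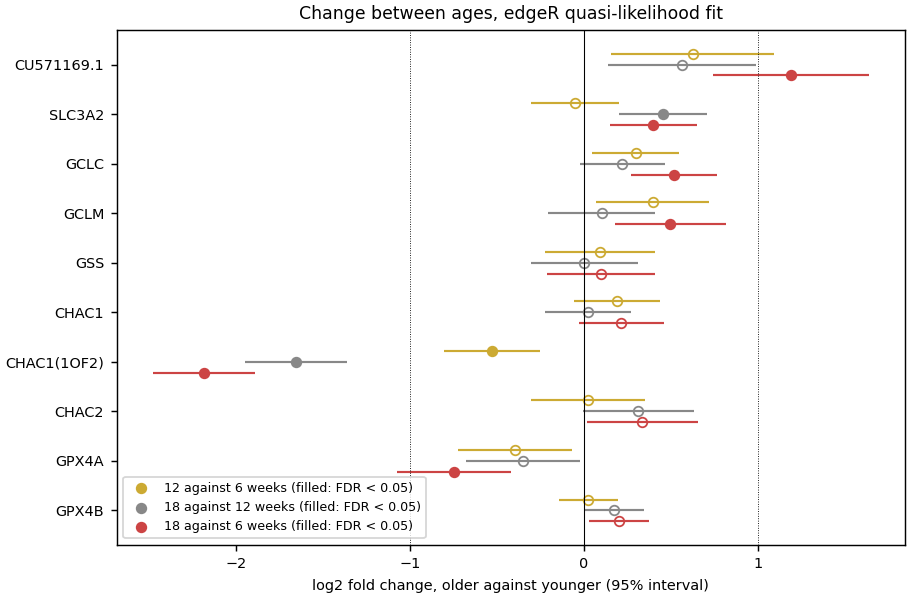
Log2 fold change of each locus between ages in the edgeR quasi-likelihood fit (points; horizontal lines are 95% intervals; filled where the FDR is under 0.05; dotted lines at -1 and 1). CU571169.1 is the only locus above 1 and CHAC1(1OF2) the only one below -1, in the latter case at both 18-week comparisons.

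CU571169.1 (XLOC_005651) is the locus that the study takes as slc7a11, the light chain of system xc-. It had no counterpart of that name among the RefSeq symbols. A different locus carries the name SLC7A11 (XLOC_005090) and matched the RefSeq symbol slc7a11. That locus had 8 counts in all, in 4 of the 30 fish and in none of the 18-week fish, and was not tested. The identity of CU571169.1 as the cystine carrier thus rests on the annotation by the authors. CU571169.1 was a low locus, with 724 counts over 30 fish. Its level was 0.814 CPM in the lowest, 2.68 in the median and 6.1 in the highest 6-week fish. At 12 weeks these levels were 2.84, 5.26 and 6.65 CPM, and at 18 weeks 4.90, 7.54 and 10.2 CPM. Of the 18-week fish, 8 exceeded the highest 6-week fish, and every one exceeded the 6-week median. In counts, the 6-week fish held between 3 and 26 and the 18-week fish between 26 and 43.

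As a description, the log2FC of CU571169.1 at 18 against 6 weeks was 1.19 (SE 0.222, 95% interval 0.74 to 1.64), a level 2.28-fold higher, and it lay between 1.08 and 1.34 in the 20 fits that each left out 1 fish. At 12 against 6 weeks it was 0.62 (edgeR FDR = 0.165), and at 18 against 12 weeks 0.56 (edgeR FDR = 0.0717), so neither step alone passed the test. The later step passed it in DESeq2 (FDR = 0.0449), in edgeR on the 20 fish of these ages alone (FDR = 0.0399) and in edgeR without 18-week fish 1 (log2FC 0.62, FDR = 0.0414). The steps differed by -0.06 on the log2 scale (SE 0.375, edgeR FDR = 0.973), with a 95% interval from -0.82 to 0.70. A neighbour in name, CU571169.5 (XLOC_005650), had 279 counts in all and mean levels of 1.59, 2.03 and 2.44 CPM at 6, 12 and 18 weeks. Its log2FC at 18 against 6 weeks was 0.58 (SE 0.286, edgeR FDR = 0.122). CU571169.4 (XLOC_005635) had 26 counts in 10 fish and was not tested.

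SLC3A2 (XLOC_011890) encodes the heavy chain that brings SLC7A11 and several other amino acid carriers to the plasma membrane. Its 6-week fish lay between 109 and 178 CPM, with a median of 126. The 12-week fish were the most uniform, between 106 and 138 CPM with a median of 125. The 18-week fish spread from 122 to 316 CPM around a median of 150. At 18 weeks, 3 fish exceeded all 6-week fish and 5 exceeded all 12-week fish, while the others overlapped the younger groups. The log2FC of SLC3A2 was -0.05 at 12 against 6 weeks (edgeR FDR = 0.895), 0.45 at 18 against 12 weeks (SE 0.125, edgeR FDR = 0.0137) and 0.40 at 18 against 6 weeks (SE 0.125, edgeR FDR = 0.0142).

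The rise of SLC3A2 leaned on a few fish. 18-week fish 1 held 316 CPM, and without it the log2FC at 18 against 6 weeks was 0.25 (edgeR FDR = 0.0426) and that at 18 against 12 weeks 0.31 (FDR = 0.0253). Without 18-week fish 1 and 4 they were 0.22 (edgeR FDR = 0.0867) and 0.28 (FDR = 0.0568), neither past the threshold. The steps of SLC3A2 differed by 0.51 (SE 0.219), but this was not past the threshold either (edgeR FDR = 0.338).

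Since light and heavy chains form 1 exchanger, their counts were also set against each other within each fish, as a log2 ratio that does not depend on the scaling of the library. Levels were not compared between loci, so only the change of this ratio is read. CU571169.1 to SLC3A2 averaged -5.43 ± 0.79 (SD, n = 10) at 6 weeks, -4.63 ± 0.46 at 12 weeks and -4.45 ± 0.61 at 18 weeks. The ratio was higher by 0.97 at 18 than at 6 weeks (permutation test, two-sided, p = 0.00644, Benjamini-Hochberg adjusted over 9 ratio comparisons 0.058, and not independent of how CU571169.1 was picked) and by 0.79 at 12 than at 6 weeks (p = 0.0131, adjusted 0.0588). Neither passed the correction. The adjusted p at 18 against 6 weeks was 0.00414 without 18-week fish 1, 0.0174 without 6-week fish 2, 0.044 without 6-week fish 5 and 0.0308 without 6-week fish 7, and at most 0.11 in the other fits that left out 1 fish. At 12 against 6 weeks it was likewise under the threshold without 6-week fish 2, 5 or 7, and also without 12-week fish 2 (0.029) or 6 (0.0314). Between 12 and 18 weeks the ratio differed by 0.18 (adjusted p = 0.694).

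Other routes of cystine and cysteine uptake were read from lists of carriers. Of 6 tested carriers that pair with SLC3A1 or SLC3A2 or move cystine within the cell, 0 rose and 0 fell at 18 against 6 weeks in edgeR and in DESeq2, and 1 was higher and 1 lower at an unadjusted p under 0.05. Their median log2FC was 0.25. SLC7A8B, a carrier of neutral amino acids, fell at 12 against 6 weeks, by 0.43 (edgeR FDR = 0.0447), and had a log2FC of -0.28 at 18 against 6 weeks (edgeR FDR = 0.0647). SLC3A1, the heavy chain of the renal cystine carrier in mammals, had 0.51 (SE 0.247, FDR = 0.117). Of 9 tested members of the SLC1 family, which carry glutamate or neutral amino acids, 1 rose and 3 fell. SLC1A4, a carrier of alanine, serine and cysteine, rose with a log2FC of 0.68 (SE 0.179, edgeR FDR = 0.0038), from a mean of 4.22 CPM at 6 weeks to 6.74 CPM at 18 weeks. SLC1A2A, a glutamate carrier, fell with a log2FC of -0.44 (SE 0.12, edgeR FDR = 0.00527).

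Synthesis was represented by GCLC, GCLM and GSS. GCLC (XLOC_000543), the catalytic subunit of the rate-limiting ligase, lay between 13.2 and 20.6 CPM at 6 weeks with a median of 18.3. At 12 weeks it lay between 16.8 and 26.4 CPM with a median of 22.7, and at 18 weeks between 20.05 and 39.8 CPM with a median of 22.9. Of the 18-week fish, 9 exceeded every 6-week fish, and only 2 exceeded every 12-week fish. The log2FC at 18 against 6 weeks was 0.52 (SE 0.122, 95% interval 0.27 to 0.76, edgeR FDR = 0.00147). Those of the single steps were 0.30 (edgeR FDR = 0.232) and 0.22 (FDR = 0.24). The 2 highest levels of GCLC were in 18-week fish 1 and 4, and without this pair its log2FC was 0.33 at 18 against 6 weeks (edgeR FDR = 0.0136) and 0.046 at 18 against 12 weeks (FDR = 0.835). Without 18-week fish 1 alone the later step was 0.13 (FDR = 0.473).

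GCLM (XLOC_023465), the modifier subunit that raises the ligase's affinity for glutamate, was a low locus, with 1107 counts over 30 fish. Its levels were 3.55, 6.84 and 8.89 CPM in the lowest, median and highest 6-week fish. They were 5.08, 9.0 and 10.5 CPM at 12 weeks and 6.98, 8.19 and 12.6 CPM at 18 weeks. All 18-week fish exceeded the 6-week median, and 4 exceeded every 6-week fish. Its log2FC at 18 against 6 weeks was 0.50 (SE 0.158, edgeR FDR = 0.016), with 0.40 at 12 against 6 weeks (FDR = 0.211) and 0.10 at 18 against 12 weeks (FDR = 0.722). The log2 ratio of GCLC to GCLM counts within a fish was 1.49 ± 0.32 (SD, n = 10) at 6 weeks, 1.37 ± 0.52 at 12 weeks and 1.47 ± 0.35 at 18 weeks. None of its differences passed the permutation test, with adjusted p between 0.694 and 0.911.

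GSS (XLOC_021271), which completes glutathione, had 1147 counts over 30 fish. Its mean level was 8.0 ± 1.43 CPM (SD, n = 10) at 6 weeks, 8.50 ± 1.83 at 12 weeks and 8.53 ± 2.13 at 18 weeks, and the fish of all ages overlapped. The log2FC at 18 against 6 weeks was 0.10 (SE 0.154, edgeR FDR = 0.682), with a 95% interval from -0.22 to 0.41. The upper end of that interval lies below the estimates of GCLC and GCLM, whose own intervals began at 0.27 and 0.18. Whether GSS differed from the ligase subunits was not tested.

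Among the members, the largest change was in a locus of the CHAC family, whose enzymes break glutathione down. The deposited annotation names a pair of loci for CHAC1, which in mammals is induced in the unfolded protein and amino acid stress responses and cleaves glutathione into 5-oxoproline and cysteinylglycine. CHAC1 (XLOC_009898) matched the RefSeq symbol chac1, and CHAC1(1OF2) (XLOC_022297) carries LOC107392428 as its second name, which RefSeq lists as a gene without a symbol. If the copies are near-identical, reads may not have been assigned cleanly to either, and their sequences were not compared here.

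CHAC1(1OF2) lay between 65.4 and 117 CPM at 6 weeks with a median of 77.5. At 12 weeks it lay between 29.6 and 87.5 CPM with a median of 61.9. At 18 weeks all fish fell into a narrow band between 15.1 and 22.4 CPM with a median of 18.6. Every 18-week fish was thus below every fish of both younger ages, a pattern seen downwards in 1.33% of all loci at 18 against 6 weeks and in 0.379% at 18 against 12 weeks. Of the 12-week fish, 8 were below every 6-week fish. The spread within a group was widest at 12 weeks, with a coefficient of variation of 30.5%, and narrowest at 18 weeks, with 14.7%.

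The log2FC of CHAC1(1OF2) at 18 against 6 weeks was -2.18 (SE 0.145, 95% interval -2.48 to -1.89, edgeR FDR = 4.65e-14), a level 4.55-fold lower. Ordered by p, it was at rank 2 of the 13975 loci. Since members were chosen with earlier results of these data known, its tests and ranks are descriptions and no independent evidence. At 18 against 12 weeks it fell by 1.66 on the log2 scale (SE 0.145, edgeR FDR = 6.59e-10), 3.15-fold, and was at rank 1. At 12 against 6 weeks it fell by 0.53 (SE 0.136, edgeR FDR = 0.0253). That early fall was past the threshold in 17 of 20 fits that each left out 1 fish. The exceptions were the fits without 6-week fish 3 (edgeR FDR = 0.0562), 6-week fish 6 (FDR = 0.0503) and 12-week fish 5 (FDR = 0.052). The second step of CHAC1(1OF2) was lower than the first by 1.13 (log2FC -1.13, SE 0.237, edgeR FDR = 0.0126). This held in 29 of 30 fits that left out 1 fish, and without 12-week fish 2 the difference was -0.96 (FDR = 0.0521).

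CHAC1 itself lay between 104 and 206 CPM at 6 weeks with a median of 122, between 123 and 189 CPM at 12 weeks with a median of 158, and between 109 and 227 CPM at 18 weeks with a median of 155. The groups overlapped almost fully. The log2FC at 18 against 6 weeks was 0.21 (SE 0.121, 95% interval -0.03 to 0.46, edgeR FDR = 0.187). Without 18-week fish 1 it was 0.14 (edgeR FDR = 0.381) and without 18-week fish 1 and 4 0.13 (FDR = 0.447). Without 6-week fish 8 it was 0.30 (edgeR FDR = 0.0427), and with library size in place of TMM factors 0.51 (FDR = 0.00131). The 2 highest 6-week fish, at 197 and 206 CPM, were fish 3 and fish 8. The log2FC of CHAC1 was 0.19 at 12 against 6 weeks (edgeR FDR = 0.487) and 0.02 at 18 against 12 weeks (FDR = 0.931), the latter -0.05 without 18-week fish 1 (FDR = 0.838).

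**Figure D3:**
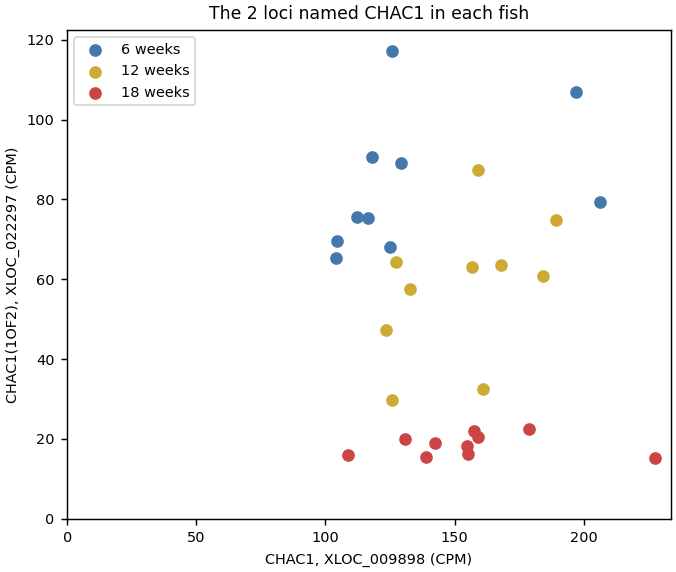
TMM-scaled CPM of CHAC1 (horizontal axis) against CHAC1(1OF2) (vertical axis), 1 point per fish, coloured by age; both axes start at 0. The 3 ages overlap from left to right, while the 18-week fish form a band between 15.1 and 22.4 CPM at the bottom.

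The balance between the loci named CHAC1 is given as a description, with no test. The log2 ratio of CHAC1(1OF2) to CHAC1 counts within a fish averaged -0.66 ± 0.337 (SD, n = 10) at 6 weeks, -1.45 ± 0.449 at 12 weeks and -3.06 ± 0.344 at 18 weeks. It ranged from -1.37 to -0.10 in 6-week fish and from -3.91 to -2.71 in 18-week fish. The sum of both loci was 218 ± 46.1 CPM (SD, n = 10) at 6 weeks, 211 ± 35.8 at 12 weeks and 174 ± 31.7 at 18 weeks. Levels were not compared between loci, so sums over both CHAC1 loci depend on how well each was captured. Summed counts of CHAC1 loci to GSS had a log2 ratio lower by 0.39 at 18 than at 6 weeks (means 4.35 and 4.74), which did not pass the permutation test (p = 0.0922, adjusted 0.277). Without 18-week fish 1 and 4 the difference was -0.55 (adjusted p = 0.0487). With CHAC1(1OF2) alone over GSS, a ratio chosen after its values were seen, the difference was -2.23 (p = 4e-05, adjusted 0.000315). With only the more abundant locus, CHAC1, over GSS the difference was positive.

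CHAC2 (XLOC_018258), a slower enzyme of the family in mammals, had 1224 counts over 30 fish. Its levels were 8.06 ± 2.25 CPM (SD, n = 10) at 6 weeks, 8.19 ± 1.85 at 12 weeks and 10.2 ± 2.08 at 18 weeks. The log2FC at 18 against 6 weeks was 0.33 (SE 0.158, edgeR FDR = 0.108), with a 95% interval from 0.01 to 0.65. Of the 18-week fish, 3 exceeded every 6-week fish. The intervals of CHAC1 and CHAC2 at this comparison began at -0.03 and 0.01, where that of CHAC1(1OF2) ended at -1.89.

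Outside the CHAC family, 6 loci of glutathione breakdown were tested, of which 2 rose and 1 fell at 18 against 6 weeks, with a median log2FC of 0.10. GGT7(2OF2) (XLOC_016894), named as a gamma-glutamyltransferase, was at 5.26 ± 1.78 CPM (SD, n = 10) at 6 weeks, 2.55 ± 0.811 at 12 weeks and 2.47 ± 1.36 at 18 weeks. It fell by 1.04 at 12 against 6 weeks (edgeR FDR = 0.0283) and by 1.09 at 18 against 6 weeks (SE 0.267, FDR = 0.00192). Its range at 18 weeks, 0.73 to 4.23 CPM, overlapped that at 6 weeks, 2.68 to 8.72 CPM. The locus named GGT7 (XLOC_021680), by contrast, rose by 0.26 (edgeR FDR = 0.0221).

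Use of glutathione against lipid peroxides was represented by GPX4A and GPX4B. GPX4A (XLOC_023180) lay between 65.1 and 137 CPM at 6 weeks with a median of 109, between 48.9 and 109 CPM at 12 weeks with a median of 79.8, and between 19.4 and 91.4 CPM at 18 weeks with a median of 64.6. Of the 18-week fish, 6 were below every 6-week fish, and none exceeded the 6-week median. The lowest of them, fish 1, was well below the next, fish 5 at 52.7 CPM. The log2FC at 18 against 6 weeks was -0.75 (SE 0.162, 95% interval -1.07 to -0.42, edgeR FDR = 0.000591). It lay between -0.81 and -0.64 in the 20 fits that each left out 1 fish, all past the threshold. Of 12 other settings, 11 passed, including the fit without 18-week fish 1 and 4. The exception was the RPE covariate given below. The steps were -0.40 (edgeR FDR = 0.211) and -0.35 (FDR = 0.158), neither past the threshold.

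The level of GPX4A followed the RPE score. With the RPE score as a covariate, its log2FC at 18 against 6 weeks was -0.01 (edgeR FDR = 0.978). In that fit GPX4A rose by 0.71 on the log2 scale per unit of the score (SE 0.13, edgeR FDR = 0.000406), and it was the only member with a slope past the threshold, which 3.04% of all loci passed. The 12-week fish with the lowest RPE score, fish 8 at 3.17, also had the lowest GPX4A level of that age, 48.9 CPM. The lowest 18-week level, 19.4 CPM in fish 1, came with a score of 3.49, inside the range of the other 18-week fish. Since the score itself was lower in older fish, the covariate also absorbs some of the difference between ages.

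For CHAC1(1OF2) the same covariate gave a log2FC of -1.84 at 18 against 6 weeks (edgeR FDR = 5.69e-09) and -0.36 at 12 against 6 weeks (FDR = 0.206), and its slope on the score was 0.35 (FDR = 0.161). At 12 weeks, the highest CHAC1(1OF2) levels were 87.5 CPM in fish 2 and 74.9 CPM in fish 7. These fish also had the highest RPE scores of that age, 4.91 and 5.07. The lowest levels, 29.6 CPM in fish 10 and 32.5 CPM in fish 5, came with scores of 3.88 and 3.89. Fish 8, with the lowest score, had 47.3 CPM. At 6 weeks this order was not seen. Fish 3, with the lowest score of that age, 4.29, had 107 CPM, a level exceeded only in fish 6. The lowest 6-week levels, 65.4 CPM in fish 10 and 68.2 CPM in fish 5, came with scores of 4.98 and 5.08. CU571169.1 had 0.97 at 18 against 6 weeks with the covariate (edgeR FDR = 0.0408), again a description and no independent evidence. GCLM had 0.72 (FDR = 0.0345). GCLC had 0.30 (FDR = 0.288) and SLC3A2 0.47 (FDR = 0.0956), neither past the threshold.

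GPX4B (XLOC_015425) averaged 223 ± 23.5 CPM (SD, n = 10) at 6 weeks, 227 ± 27.9 at 12 weeks and 256 ± 35.4 at 18 weeks. Of the 18-week fish, 6 were above and 1 was below every 6-week fish. The log2FC at 18 against 6 weeks was 0.20 (SE 0.085, edgeR FDR = 0.0717). The low fish was 18-week fish 1 at 171 CPM, and without it the log2FC was 0.25 (edgeR FDR = 0.00708). Without 6-week fish 1 it was 0.23 (FDR = 0.0485). At 18 against 12 weeks it was 0.17 (edgeR FDR = 0.179), and 0.23 without 18-week fish 1 (FDR = 0.027).

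**Figure D4:**
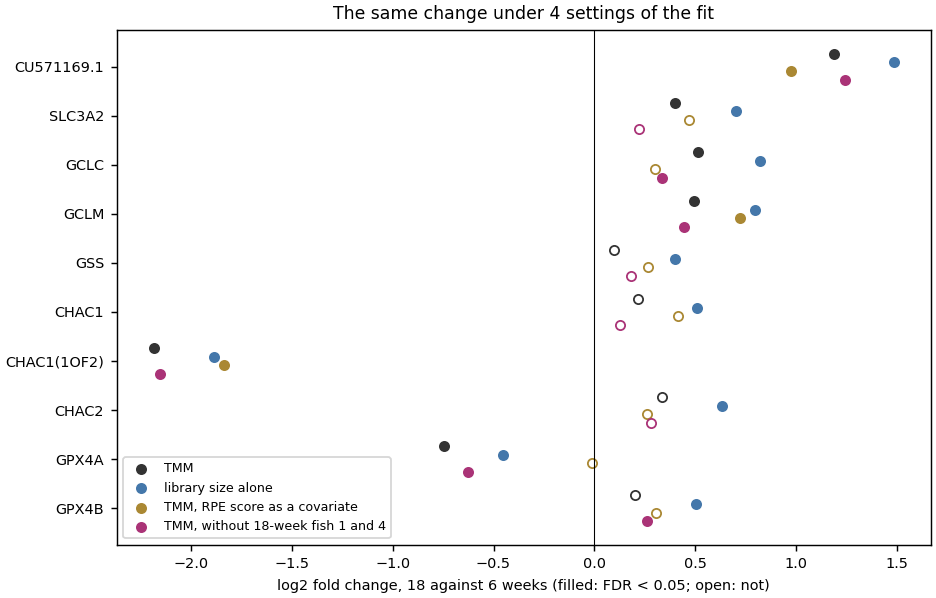
Log2 fold change at 18 against 6 weeks of each locus under TMM scaling, library size alone, TMM with the RPE score as a covariate, and TMM without 18-week fish 1 and 4 (filled where the edgeR FDR is under 0.05). CHAC1(1OF2) stays between -2.18 and -1.84 in these fits, while GPX4A goes to -0.01 with the covariate.

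Scaling bears on all of these values. With library size alone, the median log2FC of all loci at 18 against 6 weeks was 0.32 in place of 0.02. Of all 13975 loci, 6441 were higher and 637 lower, where the main fit gave 1952 and 2124. Of the members, 10 of 10 were called, 8 higher and 2 lower. CHAC1, CHAC2, GSS and GPX4B then rose, with log2FC of 0.51, 0.63, 0.40 and 0.50. The 2 most abundant loci of the retina took 43.0% of counts at 6 weeks, 38.5% at 12 weeks and 30.8% at 18 weeks on average. Relative to the shifted median, the order of the members was the same, with CU571169.1 at 1.48 and CHAC1(1OF2) at -1.89 as the ends.

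Genes around the pathway were described from 8 lists, of which the carriers and other breakdown enzymes are given above. In the methionine cycle, transsulfuration and cysteine use, 2 of 11 tested loci rose and 3 fell at 18 against 6 weeks, with a median log2FC of 0.05. CDO1 (XLOC_023934), cysteine dioxygenase, which oxidises cysteine and so removes it from glutathione synthesis, rose most. It lay between 22.4 and 40.1 CPM at 6 weeks with a median of 32.3, between 39.4 and 61.1 CPM at 12 weeks with a median of 47.2, and between 59.7 and 101 CPM at 18 weeks with a median of 75.4. Every 18-week fish was above every 6-week fish, a pattern found upwards in 1.01% of loci.

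The log2FC of CDO1 was 0.59 at 12 against 6 weeks (edgeR FDR = 0.00149), 0.70 at 18 against 12 weeks (FDR = 2.65e-05) and 1.29 at 18 against 6 weeks (SE 0.112, FDR = 6.13e-11). It passed the threshold in each of the 12 other settings tried at 18 against 6 weeks, with log2FC from 1.19 to 1.60. Its slope on the RPE score was -0.03 (FDR = 0.946). Of the other called loci of this list, MAT2AB (log2FC -0.62), AHCY (-0.42) and CBS(2OF2) (-0.41) fell and MAT2AA (0.34) rose. MAT2AB and MAT2AA are named as copies of methionine adenosyltransferase, AHCY hydrolyses adenosylhomocysteine, and CBS makes cystathionine from homocysteine and serine, on the route to cysteine.

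**Figure D5:**
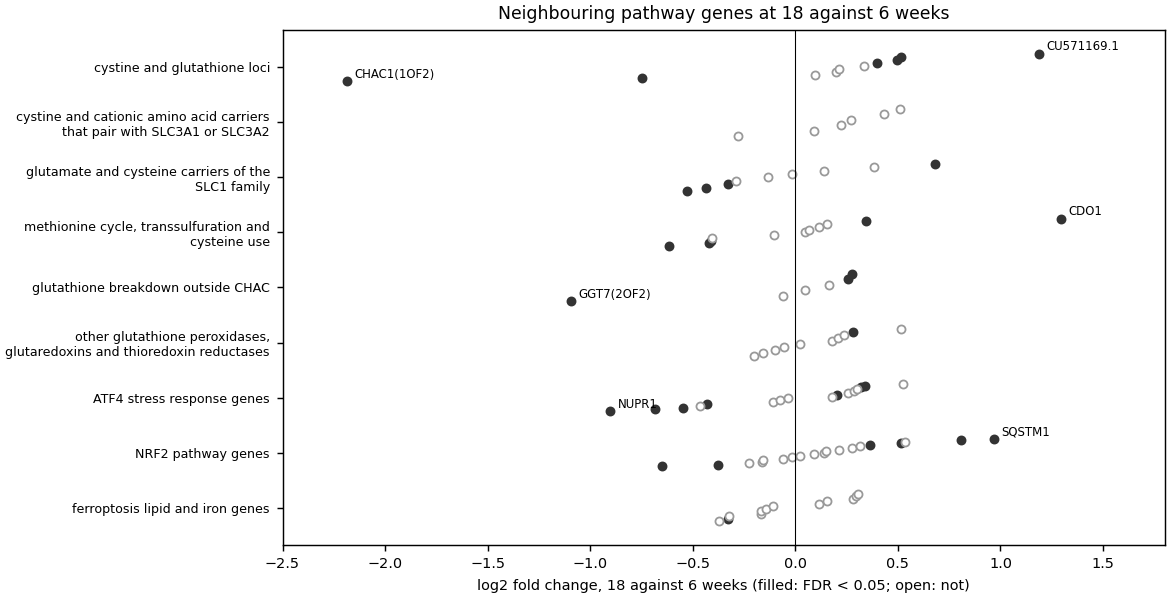
Log2 fold change at 18 against 6 weeks of each tested locus in the cystine and glutathione loci and in 8 lists of neighbouring genes (filled where the edgeR FDR is under 0.05). Most points lie between -0.5 and 0.5, and CHAC1(1OF2) at -2.18, CDO1 at 1.29, CU571169.1 at 1.19 and GGT7(2OF2) at -1.09 lie beyond 1 in size.

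Other enzymes that draw on glutathione or thioredoxin were mostly not called. Of 10 tested peroxidases, glutaredoxins and thioredoxin reductases outside GPX4, 1 rose and 0 fell at 18 against 6 weeks in edgeR and in DESeq2, with 0 lower at an unadjusted p under 0.05 and a median log2FC of 0.10. The riser was GLRX2, a mitochondrial glutaredoxin in mammals, with a log2FC of 0.28 (SE 0.0909, edgeR FDR = 0.018). GPX1B, a cytosolic glutathione peroxidase, had 0.51 (SE 0.225, FDR = 0.0812). Of 12 ferroptosis genes of lipid and iron handling, 0 rose and 1 fell in edgeR and in DESeq2, with 1 higher at an unadjusted p under 0.05 and a median log2FC of -0.13. ACSL3B, an acyl-CoA synthetase, fell by 0.33 (edgeR FDR = 0.00751), and NCOA4, a receptor for the breakdown of ferritin, had a log2FC of 0.31 (FDR = 0.0771).

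In mammals CHAC1 and SLC7A11 are targets of the stress factor ATF4, and GCLC, GCLM and SLC7A11 of the oxidative stress factor NRF2. Of 16 tested ATF4 response genes, 3 rose and 4 fell at 18 against 6 weeks, with a median log2FC of 0.07. PSAT1, an enzyme of serine synthesis, rose by 0.34 (edgeR FDR = 0.00333), while NUPR1, a stress-induced chromatin protein, fell by 0.90 (SE 0.234, FDR = 0.00344). DDIT3, the factor also called CHOP, fell by 0.43 (FDR = 0.00364), from a mean of 35.0 CPM at 6 weeks to 26 CPM at 18 weeks. The list thus held both directions.

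Of 19 tested NRF2 pathway genes, 4 rose and 2 fell, with a median log2FC of 0.14. SQSTM1, an autophagy receptor that binds the NRF2 inhibitor KEAP1, rose by 0.97 (SE 0.132, edgeR FDR = 7.34e-07). Its fish lay between 5.25 and 11.9 CPM at 6 weeks, between 8.94 and 14.3 CPM at 12 weeks and between 12.8 and 18.2 CPM at 18 weeks. The youngest and the oldest did not overlap, a pattern found upwards in 1.01% of loci. NQO1(1OF10), named as a quinone reductase, rose by 0.52 (edgeR FDR = 0.000826) and is 1 of several loci of that name. Of the 3 loci named for transketolase, TKT at XLOC_015856 fell by 0.65 (edgeR FDR = 0.0082) and TKT(1OF2) by 0.38 (FDR = 0.00571), while TKT at XLOC_002654 had a log2FC of 0.15 (FDR = 0.344). Shares of called loci in these lists can be read beside the 29.2% of all loci called at this comparison.

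Lastly, the loci whose profile over the 30 fish was most like 3 members were looked up, as a description. Likeness was the root mean square difference of z-scored log2 CPM, whose median over 13324 named loci was 1.39 for CU571169.1 and for CHAC1 and 1.40 for CHAC1(1OF2). CHAC1(1OF2) was most like PPP2R5B (0.305), SLC25A18 (0.359), C8ORF42 (0.368), PCLOA (0.372) and TNRC6C(1OF3) (0.382). All had a negative log2FC at 18 against 6 weeks, which follows from their choice by likeness, since the profiles include the age difference. CU571169.1 was most like PACS1 (0.658), MAP6D1 (0.676), HEPACAM (0.702), SLC16A1(1OF2) (0.703) and NEURL(2OF2) (0.72). CHAC1 was most like CYBA (0.685), CD74A (0.731), DCUN1D5 (0.734), UFC1 (0.735) and CMTM6 (0.739). CYBA is a subunit of the phagocyte oxidase and CD74A the invariant chain of antigen presentation. CD74A is itself 1 of the 10 loci averaged in the immune marker score, so that score is not independent of this likeness. The 6-week fish with the highest CHAC1 level, fish 8, also had the highest immune marker score of all 30 fish, 3.53, where the other 6-week fish lay between 1.16 and 2.11. The highest CHAC1 level of all 30 fish, 227 CPM in 18-week fish 1, came with an immune marker score of 2.38, the lowest of its age. The part of immune cells in the level of CHAC1 was not tested.

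After each fish was centred on the mean of its age, so that the age difference no longer counted, the loci nearest to CHAC1(1OF2) included NEXN (0.563), RCSD1(1OF2) (0.579), VPS37D (0.639) and NCALDB (0.648). PACS1 stayed among the 5 nearest to CU571169.1 (0.826), behind FNIP1 (0.791) and PPRC1(2OF2) (0.804) and ahead of GMCL1 (0.832) and WHSC1 (0.834). For CHAC1 the 5 nearest were UFC1 (0.702), RBBP5 (0.703), CYBA (0.734), MXRA7 (0.742) and CD74A (0.755).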

How the data were processed

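Per the paper's methods and the submitters' processing notes, the authors trimmed reads with Trim Galore 0.6.7 (cutadapt 3.4, FastQC 0.11.9), mapped them with STAR 2.7.0 to a custom-built transcriptome, cleaned them with SAMtools 1.9.4 and counted them with HTSeq 0.11.2, and they used edgeR 3.42.4. The strand setting is not given in the sources used here. The authors deposited the counts without normalization. Only gene names were taken from the deposited annotation, and its own comparison columns, of the single-cell data, were not used. Categories that name no locus stayed out of library sizes (no feature 18.0% to 27.7% and ambiguous 0.838% to 1.85% of reads).

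Loci were filtered with filterByExpr, scaled with TMM and fitted with glmQLFit in edgeR 4.0.16 (R 4.3.3, limma 3.58.1), with 1 coefficient per age over 30 fish, and compared with glmQLFTest and Benjamini-Hochberg adjustment. SE is the log2FC divided by the square root of F. Scores and profiles used log2 CPM with a prior count of 2. Ratios within a fish, with 0.5 added to each sum, were tested with 100000 permutations. The fit was tested on simulated counts.

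Members, lists, tests and alternatives were chosen with earlier results of these data known. The genes named were all members and, per list, loci past both thresholds or else the 2 with the smallest FDR. Other list genes named, which include MAT2AB, AHCY, CBS(2OF2), MAT2AA, GGT7, DDIT3, the TKT loci and marker genes, were chosen after their values were seen. RefSeq entries (assembly NfurGRZ-RIMD1) matched 8 of 10 members, of which GPX4B and CHAC1(1OF2) matched only a LOC identifier and no gene symbol. Since the build differs, no coordinates are given. Sequences were not used here. Alternatives were DESeq2 1.42.0, other scalings and filters, an RPE score covariate, a replicate block and leaving out fish. Each replicate is 1 fish, and low loci carry more counting error. 1 locus that the rule on like profiles names is not reported here.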

Additional observations from a re-analysis of the deposited data

Results flagged for a closer look

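In 3 of the 30 sets of 10 fish (10 loci at 3 ages), 1 fish lay far from the others, as the gap to its neighbour over the whole range passed the critical value of Dixon's test at 95%. Chance flags about 1 in 20 such sets. SLC3A2 was highest in 18-week fish 1, at 315.54 CPM (gap 0.574), and GPX4B was lowest in the same fish, at 170.88 CPM (gap 0.51). This fish also stood apart on the first principal component, at 101. Its library had the lowest share of no feature reads, 18.0%, and the highest of ambiguous reads, 1.85%, among the 30 fish. SLC3A2 at 6 weeks was highest in fish 8, at 178.44 CPM (gap 0.537), which was also the 6-week fish with the highest CHAC1 level, 206 CPM, and the highest immune marker score, 3.53. The highest CHAC1 level of all 30 fish, 227 CPM in 18-week fish 1, came with the lowest immune marker score of its age, 2.38. The part of these features in the values was not tested.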

How the results depend on the processing

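With library size alone, member calls at 18 against 6 weeks went from 6 to 10 (CHAC1 0.51, GPX4B 0.50, CHAC2 0.63 and GSS 0.40 were added). Those at 18 against 12 weeks went from 2 to 6 (GCLC 0.40, CU571169.1 0.75, GPX4B 0.35 and CHAC2 0.48 were added). Calls over all loci went from 4076 to 7078 and from 1695 to 3341 at these comparisons. In the same fit SLC3A2 at 12 against 6 weeks became 0.060, and the difference of steps of CU571169.1 became 0.0083. With the RPE score as a covariate, member calls were 3 at 18 against 6 weeks and 0 at 12 against 6 weeks. Calls over all loci were 1657 and 296 at these comparisons, against 4076 and 308 in the main fit. With this covariate CHAC2 (-0.022) and GPX4A (0.0024) at 12 against 6 weeks and the difference of steps of GPX4A (-0.015) changed sign. Without 18-week fish 1 and 4, member calls at 12 against 6 weeks were 2, with GPX4A at -0.40 (edgeR FDR = 0.043). Calls over all loci at that comparison were 619, against 308 in the main fit. Without these fish CHAC1 at 18 against 12 weeks (-0.057) and the differences of steps of CU571169.1 (0.014) and GSS (0.014) changed sign. Of the ratios without these fish, CU571169.1 to SLC3A2 passed the permutation test at 18 against 6 weeks (1.18, adjusted p = 0.00963) and at 12 against 6 weeks (0.79, adjusted p = 0.0487). The first was not independent of how CU571169.1 was picked, and both comparisons share the 6-week fish. CHAC1 loci to GSS also passed at 18 against 6 weeks (-0.55), and GCLC to GCLM at 18 against 12 weeks became -0.0053. A pseudocount of 2 put GCLC to GCLM at 18 against 6 weeks at 0.0065. With only the most abundant locus of each name, CHAC1 loci to GSS were 0.16, 0.14 and 0.022 at 18 against 6, 12 against 6 and 18 against 12 weeks, since CHAC1(1OF2) is then left out. With CHAC1(1OF2) alone over GSS, added after seeing the data, CHAC1 loci to GSS were -2.23, -0.65 and -1.59. The other causes were not tested.

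Leaving out 1 fish in turn gave member calls of 6 to 7 at 18 against 6 weeks, 0 to 1 at 12 against 6 weeks and 2 to 4 at 18 against 12 weeks (4 without 18-week fish 1), and 0 to 1 for the difference of steps. Calls over all loci at 18 against 12 weeks were 1686 without 18-week fish 1 and 1695 in the main fit. The ratio CU571169.1 to SLC3A2 ranged from 0.81 to 1.14 at 18 against 6 weeks and from 0.63 to 0.91 at 12 against 6 weeks, and GCLC to GCLM at 18 against 6 weeks from -0.091 to 0.039. Values near 0 that changed sign were CHAC1 (-0.048 to 0.071) and GSS (-0.061 to 0.062) at 18 against 12 weeks, CHAC2 (-0.053 to 0.078), GPX4B (-0.0051 to 0.053) and SLC3A2 (-0.077 to 0.011) at 12 against 6 weeks, and the differences of steps of CU571169.1 (-0.21 to 0.047), GPX4A (-0.080 to 0.17) and GSS (-0.22 to 0.0057).

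Of 30 same-numbered pairs of fish, 2 correlated above 0.1 (median r 0.0079), and 6 of 30 fish matched their own number best. Differently numbered pairs were not set beside them, so whether fish numbers pair the samples was not tested. With the number as a replicate block GSS at 18 against 12 weeks became -0.0084, no member call changed, and loci called over all genes went from 4076 to 3967 at 18 against 6 weeks. RLE and upper-quartile factors, other filters, robust fitting and leaving loci above 1% of counts out of the whole fit changed no member call and no direction. DESeq2 and the fit of 20 fish added CU571169.1 at 18 against 12 weeks. Depth limits CU571169.1, GCLM, GSS and CHAC2 most, at 724 to 1224 counts over 30 fish.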
